A study of Mus musculus with 10 samples.

Results

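Genes of cholesterol synthesis, fatty acid synthesis and the sterol-sensing SREBP pathway were examined in cortical cells with and without Cdkn1c, the imprinted gene for a cyclin-dependent kinase inhibitor. The set held 41 genes of the 53379 genes counted, chosen by name and with earlier results of these data known. It comprised 19 genes of sterol synthesis, 10 of fatty acid synthesis and 12 of sterol sensing, transport and efflux. Of these, 40 reached the minimum average of 10 reads and were tested among 11551 genes. The exception was Nr1h3, with a mean of 0.8 reads.

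Each RNA-seq library was made from 400 cells sorted from the neocortex of a single embryo at embryonic day 16 (E16). In the 3 cKO-Cdkn1c-MADM-7 embryos the GT and the TG cassette chromosome each carried Cdkn1c-flox, and in the 7 control MADM-7 embryos (GT/TG) neither did; all 10 were Emx1 Cre/+. Both groups therefore shared the MADM cassettes on chromosome 7, which label cells after a Cre-driven exchange between homologous chromosomes, and the Cre of Emx1, which acts in the dorsal telencephalic lineage of projection neurons and astrocytes. GFP+, tdT+ and GFP+/tdT+ cells were pooled, so cells with uniparental disomy of chromosome 7 were mixed with cells without it in every library. Mice were of a mixed C57BL/6J and CD1 background, and the labels give CD1. Embryos were not separated by sex.

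Cells make cholesterol from acetyl-CoA in a long series of steps: acetyl-CoA is built into mevalonate, mevalonate into isoprenoid units, and these into squalene, which is closed into a ring and trimmed to cholesterol. The transcription factors SREBP1 and SREBP2, encoded by Srebf1 and Srebf2, are held in the endoplasmic reticulum with the escort protein SCAP by INSIG proteins when sterols are plentiful; when sterols fall they are cut free in the Golgi and switch on the synthesis genes. SREBP2 acts mainly on sterol genes and SREBP1 mainly on fatty acid genes, while the liver X receptors, encoded by Nr1h2 and Nr1h3, sense oxysterols and switch on efflux genes. The embryonic brain comes to make its own cholesterol as the blood-brain barrier closes, and neurons and glia use it for growing membranes.

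Promoter sequence is shown for the genes that differed between the groups and had a window among the RefSeq promoters, because SREBP factors act there together with the CCAAT-binding factor NF-Y. Both sequences below are the 250 bases before the transcription start, read 5' to 3' on the gene's strand, from RefSeq on GRCm38.p6. Hmgcs1 lies at chr13:119690101-119690350 on the plus strand and Cyp51 at chr5:4104698-4104947 on the minus strand. Capitals mark the letters CCAAT on either strand, which read ATTGG when they lie on the other strand, and the sterol regulatory element, searched as TCACNCCAC on both strands.
Hmgcs1: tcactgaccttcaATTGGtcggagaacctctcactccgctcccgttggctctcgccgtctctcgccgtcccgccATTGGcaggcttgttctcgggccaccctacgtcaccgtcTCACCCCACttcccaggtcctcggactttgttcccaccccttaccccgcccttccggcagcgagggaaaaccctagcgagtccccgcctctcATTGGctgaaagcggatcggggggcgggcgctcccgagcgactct
Cyp51: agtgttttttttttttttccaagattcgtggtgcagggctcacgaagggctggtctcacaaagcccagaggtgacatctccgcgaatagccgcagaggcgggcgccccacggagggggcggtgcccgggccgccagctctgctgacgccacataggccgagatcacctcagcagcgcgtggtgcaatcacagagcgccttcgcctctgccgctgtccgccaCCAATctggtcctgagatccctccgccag
The Hmgcs1 stretch held TCACCCCAC from position -137. It held CCAAT from -237, -176 and -45, in each case on the other strand. Of the letters marked by capitals, Cyp51 held only CCAAT from -29. Of the 41 members, 32 had at least 1 window, which ran from 250 bases before to 50 bases after a start. A gene with several starts had several windows and was counted if any of them held the letters. The letters CCAAT were found in 15 of 16 sterol synthesis genes with a window (93.8%), in 4 of 7 fatty acid synthesis genes (57.1%) and in 5 of 9 sensing and efflux genes (55.6%). The share was 44.0% over the 8858 tested genes with a window. Of the 32 members with a window, Hmgcs1 alone held TCACNCCAC, which occurred in 1.38% of these tested genes. Other forms of the sterol regulatory element were not searched, so a gene without these letters may still hold one. Fdft1 and Sqle had no window. The Sp1 letters GGGCGG were found in 87.5%, 42.9% and 77.8% of the genes with a window in the 3 lists, against 71.7% of the tested genes. These matches describe letters in a fixed window and not binding, and do not overlap each other in the sequences shown.

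The targeted gene matched the labels. Cdkn1c had 10.8, 3.94 and 7.64 CPM (reads scaled to normalised library size) in cKO replicates 1, 2 and 3, and 67.5 to 131 CPM in the 7 controls (log2 fold change -3.66, SE 0.38, adjusted p = 3.68e-06, edgeR). Reads on genes ran from 2417184 to 2998916 in the cKO libraries and from 1738220 to 3362487 in the controls (two-sided exact permutation p = 0.583, where 120 splits allow no p below 0.0167). More genes had at least 1 read in cKO, 17986 to 18319 against 16802 to 18100 (exact permutation p = 0.0333). Against the labelled lineage, projection neuron markers were present in every library, with a summed level of 2786 to 2811 CPM in cKO and 3953 to 4970 CPM in controls and with 3 of 11 lower at adjusted p under 0.05 (Neurod2, Neurod6 and Cux2). Markers of Cajal-Retzius cells, early neurons of the cortical surface, summed to 540 to 657 CPM in cKO and 16.3 to 167 CPM in controls, with 6 of 6 higher. Radial glia markers overlapped between the groups (1495 to 2805 against 1700 to 2836 CPM, 0 of 9 tested called), and so did intermediate progenitor markers (640 to 775 against 423 to 1019 CPM, 0 of 6 called). Interneuron markers, of cells outside the Emx1 lineage, ran from 39.4 to 109 CPM in cKO and from 14.6 to 52.4 CPM in controls, with 1 of 6 tested higher (Dlx2). Oligodendrocyte precursor markers ran from 7.88 to 28.3 CPM in cKO and from 0 to 84.2 CPM in controls. Immediate early genes, which rise on stimulation or during handling of cells, summed to 1371 to 2833 CPM in cKO and 767 to 1413 CPM in controls, with 4 of 7 tested higher. Microglia markers stayed at or below 23.3 CPM and vascular markers at or below 20.5 CPM in every library, and red blood cell genes ran from 20.4 to 2301 CPM in cKO and from 0.36 to 1817 CPM in controls. The part of each of these differences in the results below was not tested. In bulk samples fewer cells of a type and less RNA per cell cannot be told apart.

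Acat2 and Fdft1, both of sterol synthesis, were the most abundant members in the control cells. Per kb of exon, Acat2 (acetoacetyl-CoA thiolase, which joins acetyl-CoA units) had a level of 114 CPM per kb in controls, followed by Fdft1 with 102, and Hmgcs1, next after these within sterol synthesis, had 62.6. Npc2, the lysosomal carrier that hands cholesterol on, led the sensing and efflux genes with 64.6 CPM per kb, and Scd2, a stearoyl-CoA desaturase of brain, led fatty acid synthesis with 60.2. At the other end, Idi1 had 2.57 CPM per kb, Scd1 had 1.19 and Abca1, the transporter that loads cholesterol onto lipoproteins, had 0.87. Reads that align to more than 1 place were dropped, and whether this lowered any of these levels was not tested. Of the 2 genes of liver X receptors, Nr1h2 had 23.1 CPM per kb in controls and Nr1h3 had 0.143.

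**Figure D1:**
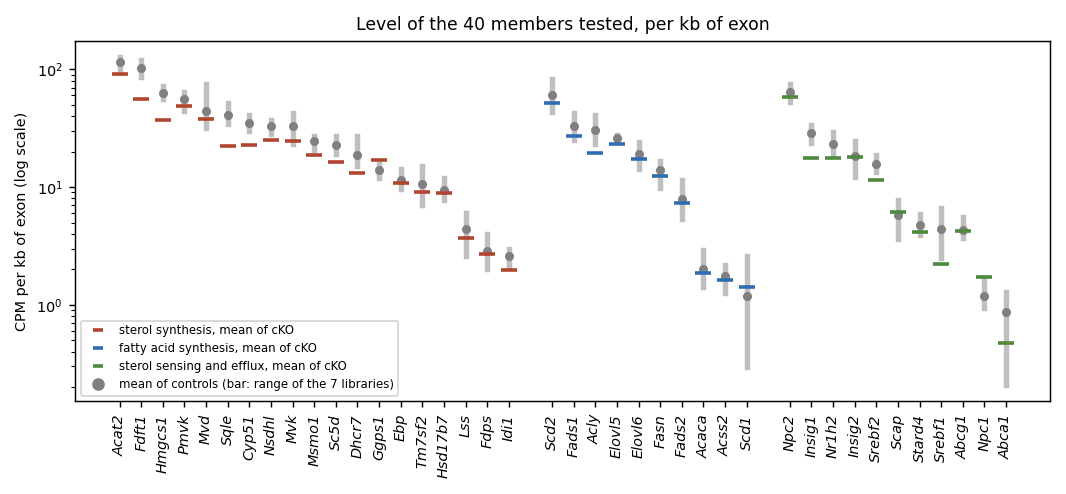
Level of the 40 members tested, in CPM per kb of exon on a log scale, ordered within each list by the mean of the controls; grey points and bars give the mean and range of the 7 controls, and coloured dashes the mean of the 3 cKO libraries. Acat2, Npc2 and Scd2 lead their lists in controls, and the cKO dashes of Fdft1, Sqle, Hmgcs1, Cyp51 and Sc5d are among those below the control bars.

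Most sterol synthesis genes had a lower level in cKO cells, and 4 of 19 passed the test. Fdft1, Sqle, Hmgcs1 and Cyp51 fell at adjusted p under 0.05, and no member of any list rose. Among all genes tested 0.883% were called lower and 2.27% were called higher. At an unadjusted p under 0.05, 9 of the 19 sterol synthesis genes were lower and 0 were higher, against 7.11% of all genes lower and 9.25% higher. In 17 of 19 the fold change was below 0, against 48.7% of all genes, and the median log2 fold change was -0.38, against 0.01 over all genes. All 3 cKO libraries lay below all 7 controls for 5 of the 19 genes, the called ones and Sc5d, which held for 2.68% of all genes; no member lay above all controls, which held for 3.32%. In fatty acid synthesis 0 of 10 genes were called and 1 was lower at an unadjusted p under 0.05. There 9 of 10 were below 0, with a median of -0.16. In sensing and efflux 0 of 11 tested were called and 3 were lower at an unadjusted p under 0.05. Here 9 of 11 were below 0, with a median of -0.22, so most genes of every list were below 0. The differences between these medians were not tested. Members were chosen with earlier results of these data known, so their counts beside the shares of all genes are a description and not independent support. Of the 36 members not called, 29 had a 95% interval within 1 log2 unit of 0 on either side.

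**Figure D2:**
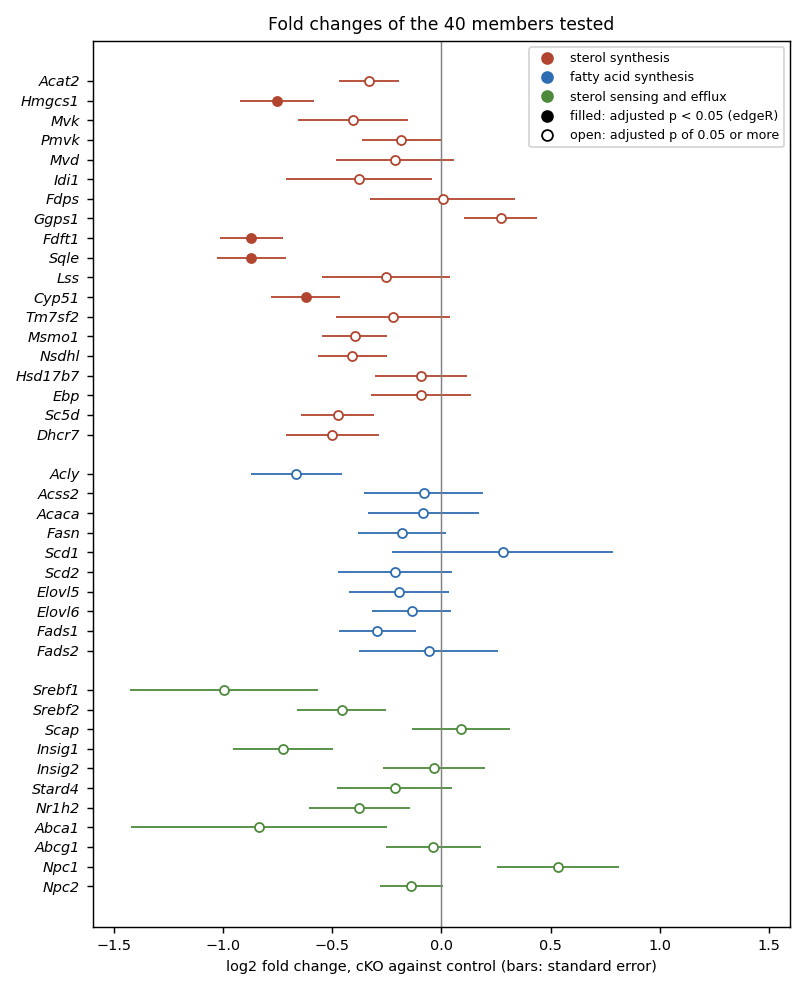
Log2 fold change of cKO against control for the 40 members tested, with standard errors, in pathway order within each list; filled points passed an adjusted p of 0.05. The 4 filled points, Hmgcs1, Fdft1, Sqle and Cyp51, belong to sterol synthesis, and 35 of 40 points lie below 0.

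Hmgcs1, whose enzyme makes HMG-CoA ahead of mevalonate, was counted at 114, 214 and 187 CPM in cKO replicates 1, 2 and 3. The 7 controls had 255 to 330 CPM with a median of 286. The groups did not overlap, with cKO replicate 1 the lowest. The log2 fold change was -0.76 (SE 0.17, adjusted p = 0.0213). Hmgcs1 overlaps the antisense gene Gm48342: the libraries carry no strand, reads that fall on both genes are left out of the count used, and which gene such reads came from cannot be told apart. The sum of the 2 strand columns, which includes them, was 1.25 times that count. Leaving out cKO replicate 1 gave -0.53 and an adjusted p of 0.0702.

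Fdft1 encodes squalene synthase, which joins farnesyl units and so commits them to sterols. It lies at chr14:63145150-63179578 (GRCm38). It had 226, 215 and 267 CPM in the cKO libraries, and 512, 365, 392, 399, 376, 481 and 491 CPM in control replicates 1 to 7. Every cKO library stood below every control, and the cKO mean was 54.7% of the control mean. The log2 fold change was -0.87 (SE 0.15, adjusted p = 0.00272), the smallest p of the set.

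Sqle encodes squalene epoxidase, the next step and a rate-limiting one, and lies at chr15:59315077-59331192. It had 106, 139 and 126 CPM in cKO, against 190 to 286 CPM with a median of 225 in controls. The groups were again apart, and the cKO mean was 54.8% of that of controls, with a log2 fold change of -0.87 (SE 0.16, adjusted p = 0.00467). Fdft1 and Sqle were called with any single library left out, with adjusted p up to 0.0121 and 0.0229.

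Cyp51, the lanosterol demethylase, had 92.4, 87.9 and 120 CPM in cKO and 132 to 180 CPM with a median of 158 in controls. The highest cKO library stood just under the lowest control. The log2 fold change was -0.62 (SE 0.16, adjusted p = 0.0418), close to the threshold: the call was lost without cKO replicate 1 or 2 or any of control replicates 1, 2, 3, 6 and 7, with fold changes of -0.55 to -0.77 over all single libraries left out and an adjusted p of up to 0.109.

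Of the 8 genes up to the isoprenoid units, Hmgcs1 included, 6 were below 0 with a median of -0.27, and of the 11 from squalene on, which include the other 3 called genes, all 11 were, with a median of -0.41. The genes not called among them had smaller differences. Sc5d, a late desaturase, had 72.5, 89.8 and 77.6 CPM in cKO and 93.6 to 132 CPM in controls, which did not overlap (log2 fold change -0.48, SE 0.17, adjusted p = 0.152). Msmo1 and Nsdhl, which remove methyl groups after Cyp51, had log2 fold changes of -0.40 (adjusted p = 0.183) and -0.41 (adjusted p = 0.199). Acat2 at the start of the pathway had 216, 204 and 274 CPM in cKO and 243 to 323 CPM in controls (log2 fold change -0.33, adjusted p = 0.24).
The other 8 genes of the list without a call (Mvk, Pmvk, Mvd, Idi1, Lss, Tm7sf2, Hsd17b7 and Ebp) had log2 fold changes of -0.41 to -0.09 and adjusted p of 0.459 or more. Among them Mvk, the mevalonate kinase, had 100.2, 40.2 and 57.3 CPM in cKO replicates 1, 2 and 3 against 62.1 to 113 CPM in controls. Lss, which closes the sterol ring, had 67.1, 27.2 and 25.0 CPM against 27.9 to 65.0 CPM. In both, cKO replicate 1 was the highest of the 3, whereas in Hmgcs1 and Sqle it was the lowest.
Dhcr7, which makes cholesterol in the last step of one branch, had 80.6, 54.0 and 95.9 CPM in cKO and 87.9 to 158 CPM in controls, overlapping through cKO replicate 3 (log2 fold change -0.50, SE 0.21, adjusted p = 0.242). Dhcr7 is also a neighbour of the deleted gene, at chr7:143823145-143848410, 362 kb from Cdkn1c. Its chromosome carried the floxed allele in cKO and was exchanged by MADM in both groups. Position and pathway cannot be told apart for Dhcr7. The study itself reported no significant change in expression of the genes flanking Cdkn1c. Nr1h2 was the other member on chromosome 7.

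On the branch away from sterols no gene passed the test. Ggps1, which makes the geranylgeranyl units attached to proteins, had 66.4, 91.0 and 82.3 CPM in cKO and 55.8 to 73.9 CPM in controls, with a log2 fold change of 0.27 (SE 0.17, adjusted p = 0.451). Its 95% interval of -0.06 to 0.60 included 0. Fdps, which supplies both branches, had a log2 fold change of 0.01 with an interval of -0.65 to 0.66, at a mean level of 2.84 CPM per kb in controls. Reads that align to more than 1 place were dropped, and whether this lowered the count of Fdps was not tested. Ggps1 overlaps Arid4b, and the sum of its strand columns was 1.15 times its count.

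In fatty acid synthesis no gene passed the adjusted test. Acly, whose ATP citrate lyase supplies acetyl-CoA to both pathways, had 68.8, 143 and 94.2 CPM in cKO replicates 1, 2 and 3 and 122 to 215 CPM with a median of 156 in controls. Replicates 1 and 3 lay below every control and replicate 2 lay among them. The log2 fold change was -0.66 (SE 0.21, adjusted p = 0.109, edgeR), and without cKO replicate 2 it was -1.004 (adjusted p = 0.0154). Without cKO replicate 1 it was -0.44 (adjusted p = 0.316), and without cKO replicate 3 it was -0.61 (adjusted p = 0.238).
Scd2 had 175, 487 and 191 CPM in cKO and 239 to 451 CPM in controls: replicates 1 and 3 were below and replicate 2 above the whole control range. Over all libraries its log2 fold change was -0.21 (SE 0.26, adjusted p = 0.758). Scd2 and Scd1 are near relatives, and reads that align to more than 1 place were dropped, so either may be undercounted. Fasn, the fatty acid synthase itself, had 109, 193 and 105 CPM in cKO, again with replicate 2 high, against 107 to 181 CPM in controls (log2 fold change -0.18, interval -0.58 to 0.22). Without cKO replicate 1, 2 or 3 its log2 fold change was -0.04, -0.53 or -0.03.
Fads1, a desaturase of polyunsaturated fatty acids, had 148, 117 and 125 CPM in cKO and 121 to 206 CPM in controls (log2 fold change -0.29, adjusted p = 0.447). Elovl5, which lengthens them, had 37.4, 102 and 105 CPM in cKO and 88.2 to 97.8 CPM in controls, so that replicate 1 stood below the controls and the other replicates above, and the log2 fold change of -0.19 (adjusted p = 0.746) changed to 0.17 without it. The remaining 5 genes of the list (Acss2, Acaca, Scd1, Elovl6 and Fads2) had log2 fold changes of -0.14 to 0.28 and adjusted p of 0.781 or more.

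**Figure D3:**
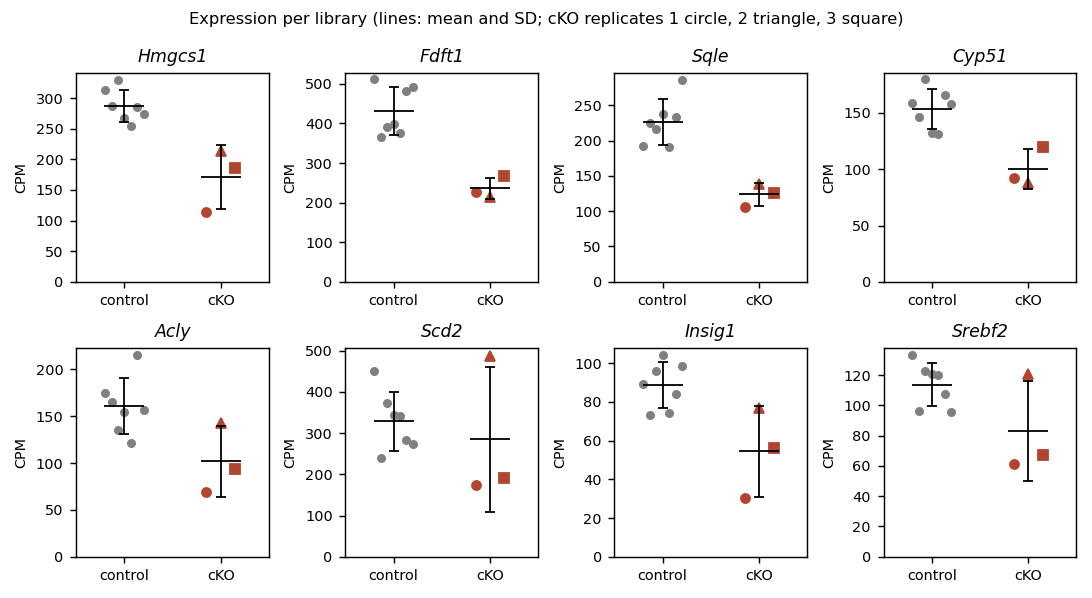
Expression in CPM in each library for the 4 called genes (top row) and for Acly, Scd2, Insig1 and Srebf2 (bottom row); grey points are the 7 controls, red symbols the cKO replicates, and lines the mean with SD, on axes from 0. In the top row every cKO symbol lies below every control, and in the bottom row cKO replicate 2 (triangle) lies within or above the control range while replicates 1 and 3 lie below it.

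Among the regulators, Insig1 and Srebf2 also had cKO replicate 2 apart from replicates 1 and 3. Insig1, a target of SREBP that also retains it, had 30.4, 76.8 and 56.0 CPM in cKO and 73.5 to 104 CPM in controls (log2 fold change -0.73, SE 0.23, adjusted p = 0.103). Srebf2 had 61.0, 121 and 67.0 CPM in cKO and 95.7 to 134 CPM in controls (log2 fold change -0.46, SE 0.20, adjusted p = 0.269). In both genes cKO replicates 1 and 3 lay below the controls and replicate 2 within them. Without replicate 2 their log2 fold changes were -1.08 (adjusted p = 0.0188, edgeR) and -0.84 (adjusted p = 0.0239). Without replicate 1 they were -0.42 (adjusted p = 0.311) and -0.27 (adjusted p = 0.576). Without replicate 3 they were -0.75 (adjusted p = 0.18) and -0.33 (adjusted p = 0.5), so only the omission of replicate 2 gave a call. Without replicate 2 the number of members called was 7 in place of 4, with Acly, Scd2, Insig1 and Srebf2 added and Cyp51 lost, while the genes called lower over the whole table were 156 in place of 102. Summed radial glia markers, of neural stem cells, were also highest in cKO replicate 2, at 1495, 2805 and 2272 CPM in replicates 1, 2 and 3, and their part in these values was not tested.
Srebf1 had 7.42, 18.9 and 11.5 CPM in cKO, against a wide range of 14.1 to 37.4 CPM in controls (log2 fold change -0.998, SE 0.43, adjusted p = 0.231), so the largest fold change of the set did not pass the test. Scap had 51.6, 46.5 and 40.3 CPM in cKO and 27.0 to 57.4 CPM in controls, with a log2 fold change of 0.09 and an interval of -0.35 to 0.53. Insig2, the INSIG gene that SREBP does not drive, had 51.9, 53.2 and 82.7 CPM in cKO and 42.1 to 86.0 CPM in controls (log2 fold change -0.03, interval -0.49 to 0.42). Log2 differences of 1 in either direction lay outside the intervals of both genes.

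Of the genes of efflux and lysosomal export, none passed the adjusted test (edgeR). Abca1 had 4.05, 9.45 and 1.27 CPM in cKO and 2.16 to 13.3 CPM in controls, a difference of -0.84 on the log2 scale that its SE of 0.59 made imprecise (adjusted p = 0.503). Abcg1, its partner in efflux, had 28.4 to 33.1 CPM in cKO and 26.8 to 40.7 CPM in controls (log2 fold change -0.04, interval -0.46 to 0.39). Npc1, which moves cholesterol out of lysosomes, was the member furthest above 0, with 22.9, 22.8 and 12.3 CPM in cKO and 10.7 to 18.6 CPM in controls (log2 fold change 0.53, SE 0.28, adjusted p = 0.368); it overlaps other genes, and the sum of its strand columns was 1.31 times its count. Its partner Npc2 had a log2 fold change of -0.14 (interval -0.42 to 0.14). Nr1h2 was at 80.6, 31.9 and 64.5 CPM in cKO and 62.7 to 99.3 CPM in controls, with replicate 2 lowest (log2 fold change -0.38, adjusted p = 0.451). Stard4, a sterol carrier, had a log2 fold change of -0.22 (adjusted p = 0.753). Nr1h3 was listed at 0 in 2 of 3 cKO libraries and in 5 of 7 controls.

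Levels were also summed over each list per library. Sterol synthesis genes summed to 1650, 1621 and 1752 CPM in cKO replicates 1, 2 and 3 and to 2189 to 2606 CPM in controls, a cKO mean of 70.4% of that of controls, without overlap. Fatty acid synthesis genes summed to 728, 1237 and 812 CPM in cKO and to 1016 to 1277 CPM in controls (84.1%), where cKO replicate 2 lay among the controls. Sensing and efflux genes summed to 688, 719 and 740 CPM in cKO and to 788 to 905 CPM in controls (84.8%), again without overlap. The mean difference in log2 CPM from the controls was -0.29, -0.48 and -0.37 for sterol synthesis, so that cKO replicate 2 was the lowest there. It was -0.30, 0.03 and -0.34 for fatty acid synthesis and -0.42, -0.06 and -0.45 for sensing and efflux. In both lists replicate 2 was the nearest to controls and lay within their range, -0.17 to 0.20 and -0.07 to 0.05. On this measure the groups overlapped in sensing and efflux, unlike the summed levels.

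**Figure D4:**
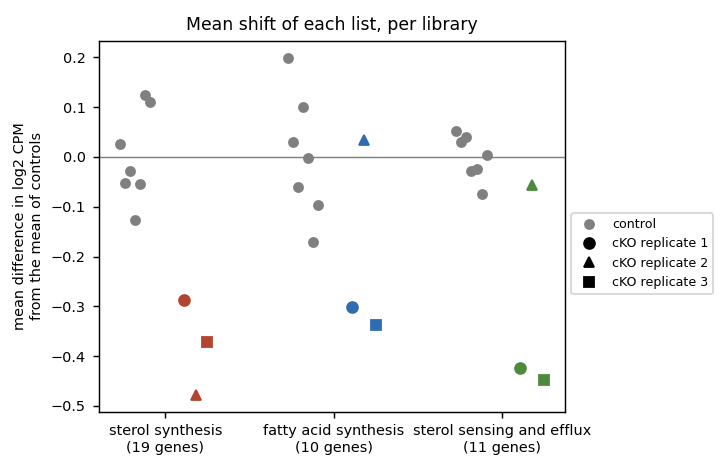
Mean difference in log2 CPM from the mean of the 7 controls, per library, for the tested genes of each list; grey points are controls and coloured symbols the cKO replicates. For sterol synthesis the cKO symbols lie at -0.29, -0.48 and -0.37, below all controls, and for the other lists cKO replicate 2 lies apart from replicates 1 and 3, at 0.03 and -0.06.

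The libraries fell into separate sets by the share of aligned reads outside genes, 5.47 to 8.64% in cKO replicate 3 and control replicates 1, 2, 6 and 7, and 12.8 to 16.7% in the other 5. Within these sets the mean log2 difference of cKO from controls was -0.42 and -0.31 for sterol synthesis, -0.33 and -0.15 for fatty acid synthesis and -0.45 and -0.24 for sensing and efflux. The sets hold 1 and 2 cKO libraries, so only sizes are given here. The log2 fold change of Fdft1 was -0.81 in both, that of Sqle was -0.90 and -0.80, that of Hmgcs1 -0.65 and -0.79, and that of Cyp51 -0.40 and -0.71, in the smaller-share and larger-share sets.

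Other genes of the same pathways lay about evenly on either side of 0. Of 61 such genes, 55 were tested and 0 were called; 28 were below 0 and 27 above, with a median log2 fold change of -0.03. Among the 8 genes that process SREBP or degrade pathway proteins on a sterol signal, 7 were below 0 (median -0.23), with Erlin2, an endoplasmic reticulum scaffold, lowest (log2 fold change -0.70, adjusted p = 0.171). Among 10 genes of the isoprenoid branch 3 were below 0 (median 0.16), and Nus1, a subunit of the enzyme that makes dolichol chains, had 0.50 (adjusted p = 0.236). Genes of fatty acid supply and elongation were 9 of 17 below 0 (median -0.05), and those of sterol transport and storage 9 of 20 (median 0.07). At an unadjusted p under 0.05, 5 of the 55 were lower (Erlin2, Elovl2, Osbpl2, Osbpl11 and Stard3) and 2 were higher (Nus1 and Abcg4), against 7.11% and 9.25% of all genes.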

How the data were processed

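Raw read counts per gene were deposited by the authors, one table per library, without normalization. Per the study's methods, Smart-Seq2 reads were aligned to GRCm38 with STAR 2.5.0c, alignments to more than 1 place were discarded, and reads were counted on GENCODE M16 genes. The unstranded column was used, which drops reads shared by overlapping genes. Symbols, positions and exon lengths came from GENCODE M21: 50604 of 53379 identifiers matched with version, 2670 without and 105 did not match.

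The 11551 genes averaging 10 or more reads were compared with edgeR 4.0.16 in R 4.3.3 (TMM, quasi-likelihood test, group alone), adjusted by Benjamini-Hochberg at 0.05. Biological variation (edgeR's common coefficient) came to 28.25%, with 0.27 as the median SE of a log2 fold change. Intervals are 95%, fold change plus or minus 1.96 SE. CPM used TMM-scaled totals. Within groups, 24 library pairs differed by a chi-square per degree of freedom of 4.93 to 23.8, so none was a duplicate. The procedure was tested on simulated data. Reads carry no molecular identifiers, and each library is 1 embryo.

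Members and lists were chosen with earlier results of these data known. Values are given for members called, members apart from controls, the 4 smallest p per list, SREBP regulators and the most abundant per list; others named were chosen after their values were seen. DESeq2 1.42.0, limma 3.58.1 and matplotlib 3.10.9 were also used. An item withheld from the marker lists is not reported here.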

Additional observations from a re-analysis of the deposited data

Results flagged for a closer look

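Over 44 sets of control values, 2 had a library far from the other 6 by Dixon's criterion, where chance gives about 1 in 20. Nr1h3, the receptor gene under the read minimum, had 1.798 CPM in control replicate 6, against 0 to 0.711 CPM in the other controls. The summed level of the fatty acid synthesis genes was 1277 CPM in control replicate 1, against 1016 to 1127 CPM in the others. Summed oligodendrocyte precursor markers were also highest in that library, at 84.2 CPM, and their part in the value was not tested.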

How the results depend on the processing

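The 4 calls in sterol synthesis were the same genes with RLE size factors, library totals, both strand columns summed, limma-voom, DESeq2 and robust dispersion. A mean of at least 50 reads or the share of reads outside genes as covariate left 3, without Cyp51. No filter on low counts added Acly and Insig1, that is 1 call each in fatty acid synthesis and in sensing and efflux, and gave 260 genes lower and 701 higher among all genes. The higher calls were 119 with at least 50 reads, and the lower calls 210 with DESeq2. With 1 library left out, the called members ran from 2 to 4 in sterol synthesis, 0 to 2 in fatty acid synthesis and 0 to 2 in sensing and efflux, with medians of -0.45 to -0.26, -0.29 to -0.10 and -0.27 to -0.095, and all genes called ran from 83 to 156 lower and 187 to 268 higher. Scap ran from -0.0074 to 0.18, Insig2 from -0.27 to 0.086 and Elovl5 from -0.42 to 0.17.

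Sets of 5 libraries by the share of reads outside genes were chosen after seeing the data. With 1 and 2 cKO libraries these sets say nothing about stability of a call: members called were 0 and 0, with 15 and 46 genes lower and higher in the smaller-share set and 13 and 34 in the other, with fewer samples; the lone cKO library of the first set was assumed to vary like the controls. In the smaller-share set the medians were -0.48, -0.48 and -0.34 for sterol synthesis, fatty acid synthesis and sensing and efflux, and the log2 fold change was 0.18 for Elovl5, 0.33 for Insig2 and -0.24 for Npc1. Insig2 was at 0.0059 with at least 50 reads and 0.0070 with the covariate. The causes of these changes were not tested.

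Replicate numbers did not pair the libraries: deviations of same-numbered libraries correlated at 0.04, -0.10 and -0.21, and 1 of 3 cKO libraries correlated best with its own number among controls 1 to 3. With the replicate block 0 sterol synthesis genes were called (Fdft1 -0.83), 141 genes were higher overall and Scap was at -0.076.

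Idi1, Fdps, Scd1 and Abca1 had the lowest depth of the tested members, with means of 17.2 to 31.9 reads.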
